A study of Homo sapiens with 7 samples.

Results

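Interferon-stimulated genes were examined one by one on 7 microarrays of transfected NCI-H520 cells, a line of human lung squamous cell carcinoma. The list held 45 genes, chosen by symbol as well-known products of the type I interferon response, and 44 of them had a probe, out of 19060 named genes on the array. IFI27 was not matched to a probe. The rule used gene symbols and no measured value, although earlier results of these data were known when the list was drawn up. Each gene was represented by its brightest probe, and its level is given throughout as log2 of the processed signal relative to the 75th percentile of the same array, so that 0 is a signal equal to that percentile. Levels of different genes come from different probes and are not set against each other.

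The cells had received the pLKO.1 plasmid without a hairpin (empty vector), with a non-target shRNA, or with an shRNA against 1 of 5 deadenylases, enzymes that shorten the poly(A) tail of mRNAs: PARN, CNOT6, CNOT6L, CNOT7 or nocturnin (NOC, gene symbol NOCT). Each group was 1 culture on 1 array, so no group had a replicate. All groups shared the line, the transfection reagent Xfect, 6 µg of plasmid, puromycin at 6 µg/mL from 12 h on, and harvest at 72 h. Untransfected cells were not analysed here. The labels give the CNOT6L and NOC shRNAs the same target accession, so the identity of the CNOT6L hairpin is uncertain. A lower signal from fewer expressing cells and one from less RNA per cell cannot be told apart in such whole cultures.

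Interferon-stimulated genes are switched on when a cell senses foreign nucleic acid or receives an interferon. Secreted interferons bind receptors that activate the JAK kinases, and a complex of transcription factors that includes STAT2 and IRF9 then binds a short DNA element, the interferon-stimulated response element, in the promoters of these genes. The products block viruses at entry, at translation and at replication, and several of them recognise double-stranded RNA. Double-stranded RNA and DNA in the cytosol are among the ligands that the sensors of this pathway recognise.

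The promoters show the element that these genes share. The letters searched were GAAANNGAAA and, for the other strand, TTTCNNTTTC, within windows from 250 bases before to 50 after a gene's start (RefSeq, build GRCh38.p14). Overlapping matches were counted separately. Of the 45 genes listed, 37 had a window, and 25 of the 37 (67.6%) held at least 1 match, whereas 3.57% of all 35116 windows did. By gene, 4.38% of 27305 genes held a match in any window. In 14 of the 37 genes a single window held 2 or more matches. The 6 windows that bear on the comparisons are printed from position -160 to position -21, counted from the gene's start, in the direction of the gene, with matches in capitals. The first 5 belong to genes with large differences between arrays, and the last, IFITM3, also has 2 matches but differed in another way.
IFIT1, chr10:89392463-89392602, plus strand: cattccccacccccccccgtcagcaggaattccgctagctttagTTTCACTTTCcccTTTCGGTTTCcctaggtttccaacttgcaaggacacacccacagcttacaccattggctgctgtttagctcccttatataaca
ISG15, chr1:1013337-1013476, plus strand: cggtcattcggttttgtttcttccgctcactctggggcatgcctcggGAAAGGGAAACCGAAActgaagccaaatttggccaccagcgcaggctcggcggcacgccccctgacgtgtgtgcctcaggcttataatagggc
IFI6, chr1:27672213-27672352, minus strand: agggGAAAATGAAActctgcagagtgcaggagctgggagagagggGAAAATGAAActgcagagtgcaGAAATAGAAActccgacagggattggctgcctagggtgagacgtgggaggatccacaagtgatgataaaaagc
DDX60, chr4:168318773-168318912, minus strand: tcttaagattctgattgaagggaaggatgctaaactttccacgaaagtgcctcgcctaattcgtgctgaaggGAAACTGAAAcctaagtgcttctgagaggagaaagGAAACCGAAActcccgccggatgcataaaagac
EPSTI1, chr13:42992262-42992401, minus strand: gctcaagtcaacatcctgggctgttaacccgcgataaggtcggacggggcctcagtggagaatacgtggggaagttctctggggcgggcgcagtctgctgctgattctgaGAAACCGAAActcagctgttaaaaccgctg
IFITM3, chr11:320881-321020, minus strand: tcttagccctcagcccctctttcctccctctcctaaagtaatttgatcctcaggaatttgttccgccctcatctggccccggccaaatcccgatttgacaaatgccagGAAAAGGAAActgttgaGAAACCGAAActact

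In IFIT1 the matches began at positions -116 and -103 and read TTTC on the gene's strand. In ISG15 they began at -113 and -107 and overlapped. IFI6 held 3 matches, at -156, -115 and -93, and the first 2 of these had the same letters. DDX60 held matches at -88 and -53, EPSTI1 held 1 at -50, and IFITM3 held 2 at -52 and -35. A match is a run of letters and not a measured binding site.

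The arrays differed in ways that bear on dim genes. All 7 lay on 1 slide. Its row 1 held the control arrays with those for PARN and CNOT6 shRNA, and row 2 held those for CNOT6L, CNOT7 and NOC shRNA. Between 82.0% and 91.4% of the 42405 gene probes were well above background, with the lowest share on the non-target array and the highest on the empty-vector array. The empty-vector array stood apart in its weak signals. When the genes tested were put into 4 equal groups by their median level, the dimmest had a median difference of -0.74 between the non-target and empty-vector arrays, while the other groups had medians of -0.06, 0.07 and 0.04. For the row 2 arrays, slide row and comparison with the controls cannot be told apart. Feature extraction of the NOC shRNA image took place on a different day.

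PARN mRNA was lowest on the PARN shRNA array, at -0.16 against 0.60 to 1.07 on the other 6. CNOT6 mRNA was lowest on the CNOT6 shRNA array (0.22, against 0.33 to 0.76), CNOT6L on the CNOT6L shRNA array (-1.97, against -1.17 to -1.44) and CNOT7 on the CNOT7 shRNA array (0.23, against 1.04 to 1.39). NOCT mRNA was at -4.94 on the NOC shRNA array and at -4.87 on the CNOT7 shRNA array, and its levels ranged up to -4.32. By the 2-fold rule given below, PARN was the only target called lower against both controls. Within slide row 2 CNOT7 was called lower with its own shRNA. With NOC shRNA, NOCT was not called lower against the controls or within the row. Among squamous markers SOX2, a lineage factor, lay at 4.60 to 5.46, but 5 of 9 were well above background on all arrays and DSG3, a desmosomal cadherin, was on none. All 5 epithelial markers passed on all arrays. Of 7 leukocyte markers with a probe, 6 passed on all arrays, as did 3 of 5 fibroblast and 3 of 3 endothelial markers. Of all 19060 named genes 16454 passed on all arrays, so passing alone does not set these markers apart. The summed linear level of the 7 leukocyte markers ran from 7.83 on the non-target array to 15.04 on the CNOT6 shRNA array. Most of it came from CD14 (2.92 to 3.85 on the log2 scale). Its part in the levels of the interferon-stimulated genes was not tested.

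Of the 44 genes, 39 were well above background on all 7 arrays. SAMD9 was above background on 6 arrays, IFI44L on 5, XAF1 on 2, and SAMD9L and TRIM22 on 1 each, the NOC shRNA array. No spot of these genes was saturated. The range over the 7 arrays ran from 0.24 log2 for STAT2 to 3.27 for SAMD9L. Repeated spots of a probe on the same array, available for 29 of the genes, give the technical spread within an array. The widest such gap was 1.45 for TRIM22, 1.15 for BST2, 1.12 for OAS2, 1.01 for EPSTI1 over its 10 spots and 0.83 for OAS1, and in the other 24 genes it was at most 0.50.

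**Figure D1:**
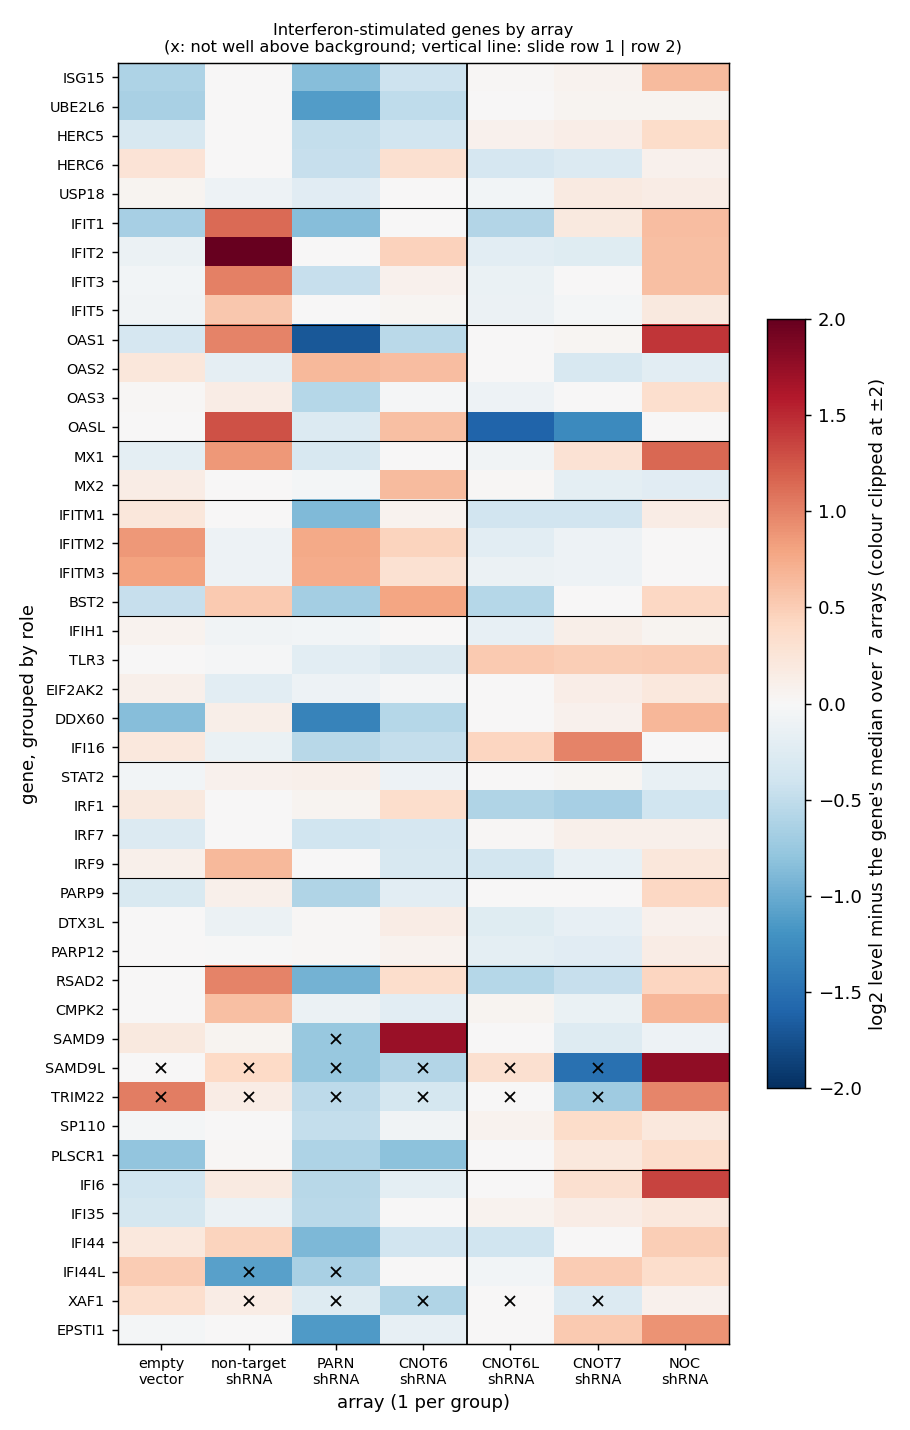
Level of each of the 44 interferon-stimulated genes (rows, grouped by role) on each of the 7 arrays (columns), as log2 difference from the gene's own median over the arrays. Crosses mark signals not well above background. The non-target and NOC shRNA columns are mostly red in the IFIT rows, and the PARN shRNA column is blue in most rows, with OAS1, EPSTI1 and DDX60 among the deepest.

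The control arrays were compared first, since neither carries a deadenylase hairpin. A gene was called when it differed at least 2-fold, with the brighter signal well above background and a dimmer signal raised to the lowest signal that passed on its array. Genes above background on none of the arrays compared were left out, which left 42 of the 44 here. On the non-target array 6 of 42 interferon-stimulated genes were above the empty-vector level by this rule (14.3%), where 0.614% of 18065 genes tested were higher. They were IFIT1, IFIT2, IFIT3, OAS1, OASL and MX1, of which IFIT3 and OAS1 were not called with normexp background correction. One gene, IFI44L, was lower, and 11.6% of all genes were lower. The median difference was 0.19 over the 42 genes and -0.05 over all genes tested. With 1 array on each side there is no test, and the difference is between those arrays.

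The IFIT proteins bind viral RNA that lacks the cap modifications of the host and block its translation. IFIT1 lay at -2.82 with the empty vector, -1.03 with the non-target shRNA, -3.01 with PARN shRNA, -2.16 with CNOT6 shRNA, -2.75 with CNOT6L shRNA, -1.96 with CNOT7 shRNA and -1.55 with NOC shRNA. Its level was 3.45-fold higher on the non-target than on the empty-vector array, and the NOC shRNA array came second. IFIT2 lay at -2.86, -0.70, -2.74, -2.28, -2.96, -2.99 and -2.13 in the same order of arrays, 4.48-fold higher with the non-target shRNA than with the empty vector. The second IFIT2 probe gave a difference of 1.77 log2 between these arrays, against 2.16 for the first. IFIT3 lay at -3.54, -2.47, -3.94, -3.40, -3.61, -3.48 and -2.88, and the non-target array was 2.10-fold above the empty vector. IFIT5, the remaining measured member of the family, lay at -1.78, -1.18, -1.71, -1.67, -1.83, -1.75 and -1.52, a difference of 0.61 between the controls that did not pass 2-fold. All 4 genes had their highest level on the non-target array and their second highest on the NOC shRNA array.

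The OAS enzymes make the messenger 2-5A from double-stranded RNA, which activates RNase L, and OASL is a family member without that activity that enhances RIG-I signalling. OAS1 lay at -6.04 (empty vector), -4.71 (non-target), -7.39 (PARN shRNA), -6.24 (CNOT6 shRNA), -5.70 (CNOT6L shRNA), -5.66 (CNOT7 shRNA) and -4.28 (NOC shRNA). The NOC shRNA and non-target arrays were the highest and the PARN shRNA array the lowest, over a range of 8.65-fold. OASL lay at -3.54, -2.26, -3.81, -2.94, -5.14, -4.82 and -3.52 in that order, so the non-target and CNOT6 shRNA arrays were highest and the CNOT6L and CNOT7 shRNA arrays lowest. OAS3 varied less, and lay at -2.60, -2.47, -3.18, -2.65, -2.73, -2.62 and -2.28, lowest with PARN shRNA and highest with NOC shRNA. OAS2 ran the other way, at -4.42, -4.83, -3.99, -4.03, -4.64, -4.96 and -4.85, but its 3 probes disagreed: on the PARN shRNA array they lay 0.64 above, 0.48 below and 0.05 below the control mean.

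MX1 and MX2 are dynamin-like GTPases that trap viral nucleocapsids. MX1 lay at -0.85 with the empty vector, 0.22 with the non-target shRNA, -0.97 with PARN shRNA, -0.65 with CNOT6 shRNA, -0.72 with CNOT6L shRNA, -0.36 with CNOT7 shRNA and 0.50 with NOC shRNA. As for OAS1, the NOC shRNA and non-target arrays were above the other 5. MX2 did not share this order, and lay at -4.07, -4.22, -4.26, -3.59, -4.20, -4.42 and -4.45, highest with CNOT6 shRNA and lowest with NOC shRNA.

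The IFITM proteins hinder fusion of viral and cellular membranes. IFITM2 lay at -1.47, -2.44, -1.58, -1.90, -2.55, -2.44 and -2.34, and IFITM3 at -0.64, -1.55, -0.70, -1.13, -1.56, -1.55 and -1.44, in the order used above. Both were high on the empty-vector and PARN shRNA arrays and low on the non-target array and on the 3 arrays of slide row 2. Between the control arrays they differed in the direction opposite to the IFIT genes. These genes are close paralogs, and their probes may share signal. IFITM1 lay at -5.78, -6.01, -6.89, -5.94, -6.38, -6.38 and -5.85, highest on the empty-vector array and lowest with PARN shRNA, but its dimmer second probe was highest with PARN shRNA (-6.19), so its probes disagreed. BST2 (tetherin), which holds budding virions at the cell surface, lay at -6.88, -5.90, -7.10, -5.63, -6.99, -6.42 and -6.01, and its 0.98 log2 difference between the controls was smaller than the gap between its spots on the empty-vector array.

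**Figure D2:**
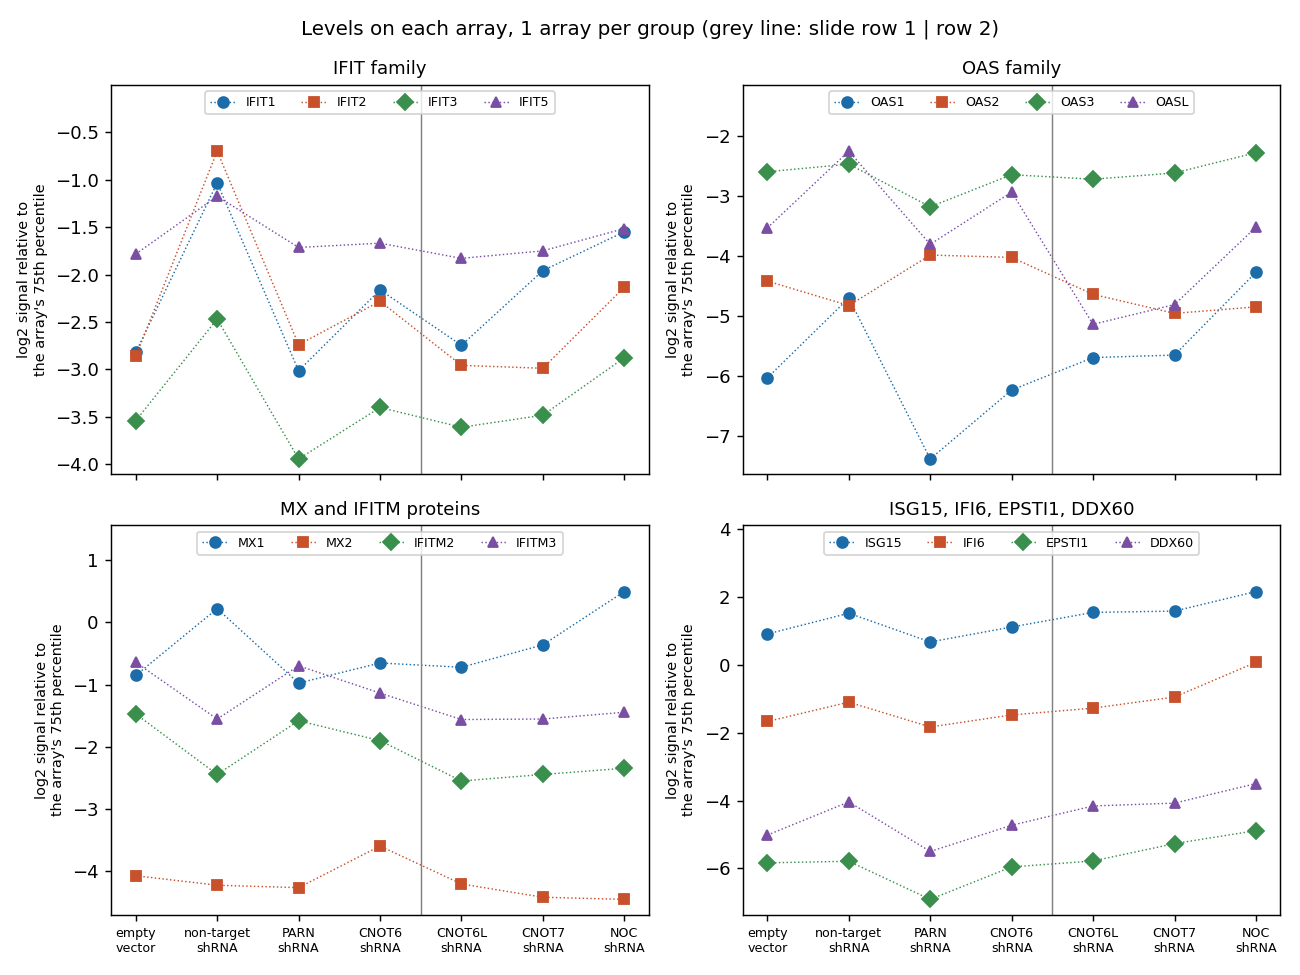
Log2 level of 16 interferon-stimulated genes on each array, with dotted lines only to lead the eye between unordered groups. IFIT1, IFIT2 and IFIT3 peak on the non-target array, OAS1 and MX1 are high on the non-target and NOC shRNA arrays, and IFITM2 and IFITM3 are lower on both of these than on the empty-vector array.

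On the PARN shRNA array 3 of 42 interferon-stimulated genes were at least 2-fold lower than on each control array (7.14%) and 0 were higher, where 0.348% and 0.16% of 18078 genes tested were lower and higher. The 3 were OAS1, IFI44 and EPSTI1. Of the 42 genes, 36 lay below the mean of the controls, and the median difference was -0.45, against -0.03 and 55.2% of genes below the control mean over all genes tested. Below both controls were 29 of the 42 (69.0%), against 32.4% of all genes.

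OAS1 was 2.55-fold below the empty-vector array and 6.42-fold below the non-target array. IFI44, an interferon-induced cytoplasmic protein, lay at -5.33, -5.09, -6.43, -5.92, -5.94, -5.54 and -5.04 from the empty-vector to the NOC shRNA array, and was 2.15-fold and 2.54-fold below the controls. EPSTI1, named for an interaction of epithelium and stroma, lay at -5.84, -5.79, -6.91, -5.96, -5.78, -5.27 and -4.89, and was 2.11-fold and 2.18-fold below them. The PARN shRNA array was the lowest of the 7 for each of these genes. It also held the widest gap between repeated spots for EPSTI1 (1.01) and for OAS1 (0.83), and IFI44 was measured on 1 spot. All 3 were among the dimmest genes, where 1.15% were called lower, and none of the 3 calls was made with quantile normalization or with normexp background correction. OAS1 then differed from the empty-vector array by -0.66 and 0.07.

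The difference depended on which control was used. Against the non-target array alone 12 of 40 genes were lower with PARN shRNA (1.5% of all genes), among them IFIT1, IFIT2, IFIT3, OASL, MX1, DDX60, RSAD2, BST2 and UBE2L6, with a median of -0.65. None was higher there (4.47% of all genes). Against the empty-vector array alone 5 of 42 were lower (5.18% of all genes), namely OAS1, IFI44, IFI44L, EPSTI1 and IFITM1, with a median of -0.21, while the medians of all genes tested were -0.01 and -0.06. For IFIT1, IFIT2 and MX1 the PARN shRNA array differed from the empty-vector array by at most 0.19 log2. Against CNOT6 shRNA, the other deadenylase array of slide row 1, 31 of the 39 genes above background on all arrays were lower with PARN shRNA (79.5%), compared with 56.8% of 16454 genes.

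Several further genes had their lowest level on this array. DDX60, a helicase that assists RNA sensing, lay at -5.02, -4.04, -5.50, -4.73, -4.16, -4.07 and -3.50. RSAD2 (viperin), which makes a chain-terminating nucleotide, lay at -4.47, -3.48, -5.42, -4.12, -5.04, -4.93 and -4.05. ISG15, the ubiquitin-like modifier, lay at 0.92, 1.53, 0.68, 1.12, 1.55, 1.59 and 2.17, and UBE2L6, which carries ISG15 to its targets, at -0.73, -0.09, -1.21, -0.60, -0.08, -0.03 and -0.04. HERC6, a relative of the ISG15 ligase HERC5, ran from -5.85 with PARN shRNA to -5.06 with CNOT6 shRNA, and USP18, which removes ISG15 from proteins, from -0.89 with PARN shRNA to -0.49 with CNOT7 shRNA. SP110, a nuclear body protein, ran from -1.98 with PARN shRNA to -1.13 with CNOT7 shRNA. Over the 39 genes above background on all arrays, 22 had their lowest level with PARN shRNA (56.4%), against 16.3% of all genes. The empty-vector array was lowest for 0 of the 39 (9.58% of all genes), the non-target array for 1 (21%), and the CNOT6, CNOT6L, CNOT7 and NOC shRNA arrays for 3 (14.2%), 7 (12.4%), 4 (13.2%) and 2 (13.2%).

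CNOT6 shRNA gave 1 higher gene of 42 (2.38%) and 0 lower, with 0.26% and 0.243% of 18074 genes called. The gene was SAMD9, an inhibitor of poxvirus replication. SAMD9 lay at -6.97, -7.12, -7.93, -5.44, -7.17, -7.43 and -7.27, measured on 1 spot, and the value with PARN shRNA was not well above background. It was 2.90-fold above the empty-vector array and 3.21-fold above the non-target array, but was not called with quantile normalization or normexp. The median over the 42 genes was -0.11, against 0.04 over all genes tested.

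With CNOT6L shRNA and with CNOT7 shRNA the same gene, OASL, was the 1 gene of 42 called lower, and 0 were called higher. Of all genes tested, 0.695% were lower and 0.215% higher with CNOT6L shRNA, and 0.794% and 0.221% with CNOT7 shRNA. OASL was 3.05-fold and 7.40-fold below the empty-vector and non-target arrays with CNOT6L shRNA, and 2.43-fold and 5.89-fold below them with CNOT7 shRNA. Only the call with CNOT6L shRNA was also made with quantile normalization and with normexp. These comparisons share both control arrays, and OASL was high on the non-target array. The median over the 42 genes was -0.18 with CNOT6L shRNA and -0.06 with CNOT7 shRNA, against 0.00 and -0.02 over all genes tested.

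With NOC shRNA 2 of 44 interferon-stimulated genes were higher than both controls (4.55%) and 0 were lower, where 0.331% and 1.06% of 18136 genes tested were higher and lower. They were IFI6 and SAMD9L. IFI6, a mitochondrial and endoplasmic reticulum protein that counters apoptosis and flaviviruses, lay at -1.67, -1.09, -1.83, -1.47, -1.27, -0.94 and 0.08, so the NOC shRNA array was above the other 6. It was 3.36-fold above the empty-vector array and 2.26-fold above the non-target array, and it was called with quantile normalization and normexp as well. SAMD9L, a paralog of SAMD9, read -8.78, -8.38, -9.54, -9.37, -8.46, -10.27 and -7.00, and was well above background only with NOC shRNA, so it was at least 3.44-fold above the empty-vector and 2.60-fold above the non-target signal. Its second probe was not above background on any array, and the mean of both probes gave no call.

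The genes as a group lay higher with NOC shRNA, with a median of 0.20 against -0.02 for all genes tested. Of the 44, 22 were above both controls, against 30.7% of all genes. Against the empty-vector array alone 8 were called higher (0.723% of all genes), namely ISG15, IFIT1, OAS1, MX1, DDX60, SAMD9L, PLSCR1 and IFI6. PLSCR1, a phospholipid scramblase with antiviral activity, lay at -3.00, -2.19, -2.83, -3.03, -2.21, -2.0 and -1.86, below -2.8 on the empty-vector, PARN and CNOT6 shRNA arrays and above -2.3 on the others. No gene was lower than with the empty vector (8.44% of all genes). Against the non-target array alone 3 were higher (4.25% of all genes) and 2, IFIT2 and OASL, were lower (2.05%), and the median was 0.13.

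Single controls changed the counts for the remaining shRNAs as well. CNOT6 shRNA gave 2 higher and 0 lower against the empty vector (0.543% and 2.47% of all genes), namely SAMD9 and BST2, and 2 higher and 3 lower against the non-target shRNA (8.57% and 1.2%), where IFIT1, IFIT2 and OAS1 were lower. With CNOT6L shRNA 2 were lower against the empty vector (6.44%), OASL and IFITM2, and 1 was higher and 7 lower against the non-target shRNA (5.37% and 1.58%), the latter including IFIT1, IFIT2, IFIT3, RSAD2 and IRF9. With CNOT7 shRNA OASL was the 1 gene lower against the empty vector (7.44%), and 2 were higher and 4 lower against the non-target shRNA (4.37% and 1.8%). IFIT2 was called lower than the non-target level with every deadenylase shRNA.

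Over the 39 genes above background on all arrays, the highest level fell on the NOC shRNA array for 16 (12% of all genes), on the non-target array for 7 (16.8%), on the CNOT6 shRNA array for 5 (21.6%), on the CNOT7 shRNA array for 5 (12.4%), on the empty-vector array for 3 (15.2%), on the PARN shRNA array for 2 (10.9%) and on the CNOT6L shRNA array for 1 (11.1%). The 16 with NOC shRNA included ISG15, HERC5, which attaches ISG15 to new proteins, OAS1, OAS3, MX1, DDX60, IFI6, IFI35, IRF7 and PARP9. The 3 on the empty-vector array were IFITM1, IFITM2 and IFITM3.

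A comparison within slide row 2 sets the NOC shRNA array against the CNOT6L and CNOT7 shRNA arrays and uses no control. Here 4 of 44 genes were at least 2-fold higher with NOC shRNA than on both (9.09%) and 0 were lower, where 0.196% and 0.174% of 17864 genes tested were higher and lower. The genes were OAS1, OASL, IFI6 and SAMD9L. OAS1 was 2.68-fold and 2.60-fold above the CNOT6L and CNOT7 shRNA arrays, OASL 3.07-fold and 2.45-fold, and IFI6 2.55-fold and 2.04-fold. With quantile normalization OAS1, OASL and SAMD9L were called with TRIM22, and IFI6 was not. With normexp OASL was the 1 gene called. The mean over all probes of a gene gave OAS1, OASL, IFI6 and IFIT2, without SAMD9L. The median over the 44 genes was 0.32, against 0.00 over all genes tested, and 33 lay above both arrays, against 32.7% of all genes.

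Within the same row, the CNOT6L shRNA array was on the low side. It gave 0 calls in either direction, with 0.56% and 0.106% of all genes called higher and lower, but 37 of 44 genes lay below the mean of the CNOT7 and NOC shRNA arrays and 31 below both, against 29.7% of all genes below both. CNOT7 shRNA also gave 0 calls, with 0.224% higher and 0.0616% lower over all genes, and its median was -0.10. These comparisons share arrays with each other, so they are not independent.

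**Figure D3:**
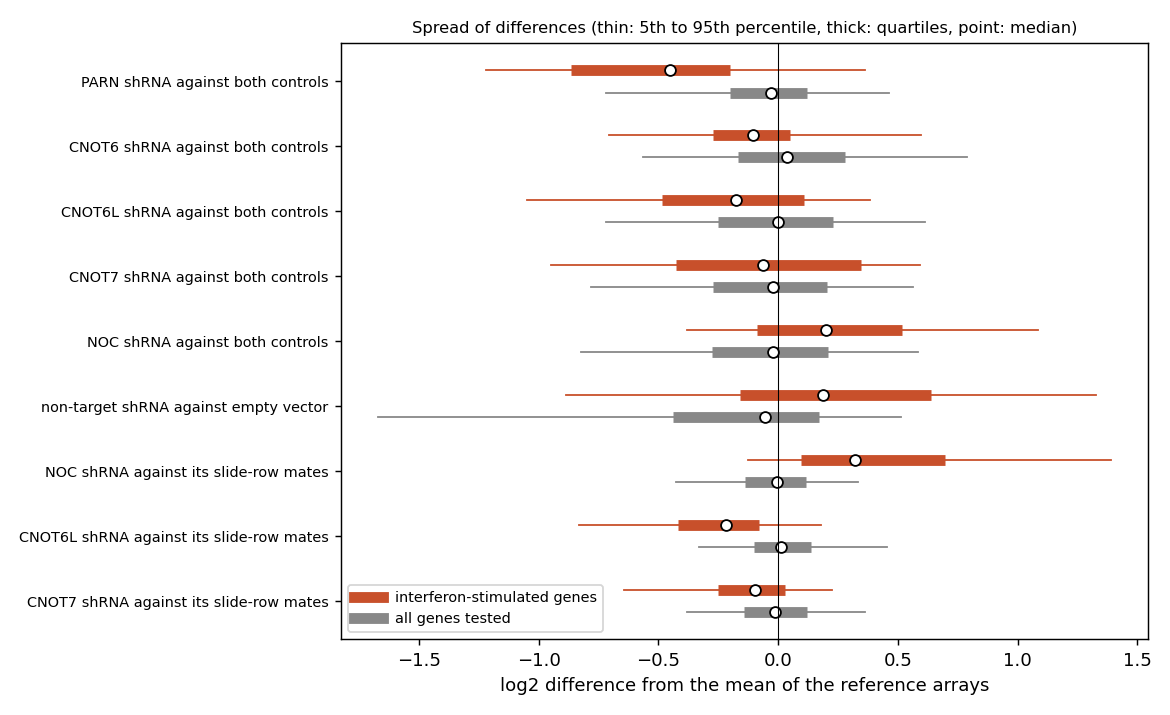
Log2 differences of the interferon-stimulated genes (orange) and of all genes tested (grey) in each comparison, with the median, quartiles, and 5th and 95th percentiles. The orange median is -0.45 for PARN shRNA against both controls, 0.19 for the non-target shRNA against the empty vector and 0.32 for NOC shRNA within slide row 2, and the grey medians lie between -0.05 and 0.04.

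The non-target against empty-vector comparison and the NOC shRNA comparison within slide row 2 have no array in common. Of the 39 genes above background on all arrays, 22 met both conditions, a higher level with the non-target shRNA than with the empty vector and a higher level with NOC shRNA than on both others of its row (56.4%), against 18.5% of 16454 genes. Taken singly, 25 genes (64.1%, against 47.7% of all genes) met the first condition and 30 (76.9%, against 33.5%) the second. The 22 included all measured IFIT genes, OAS1, OAS3, OASL, MX1, BST2, DDX60, RSAD2, CMPK2, ISG15, IFI6, IFI44, EPSTI1, IRF9 and PARP9. Any difference above 0 met a condition, however small. Between the controls EPSTI1 differed by 0.05 and OAS3 by 0.13, and the dimmer second OAS3 probe gave -0.15. RSAD2 differed by 0.99 in the first comparison and by 0.94 from the mean of the other arrays in the second, MX1 by 1.07 and 1.04, and OAS1 by 1.33 and 1.40. Lower in both were 2 genes (5.13%, against 19.8% of all genes), IFI16 (-0.35 and -0.71) and MX2 (-0.15 and -0.14). IFITM2 and IFITM3 differed by -0.97 and -0.91 in the first comparison and by 0.15 and 0.11 in the second.

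**Figure D4:**
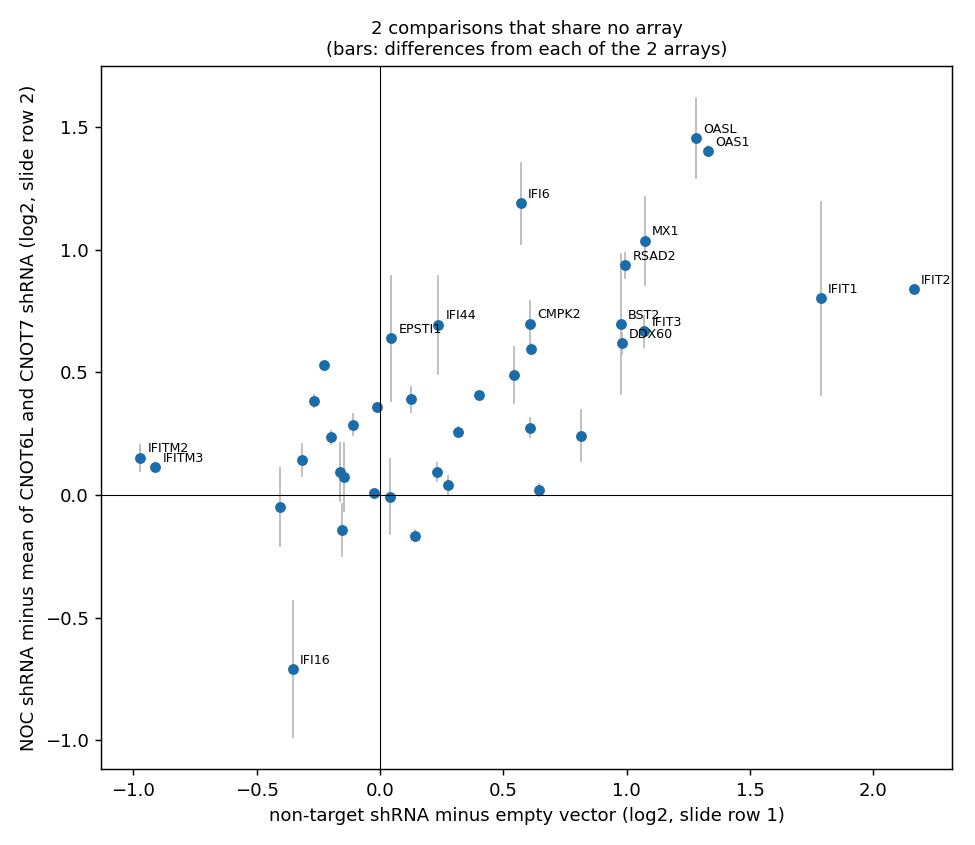
Log2 difference between the non-target and empty-vector arrays (x axis) and between the NOC shRNA array and the mean of the CNOT6L and CNOT7 shRNA arrays (y axis), for the 39 genes above background on all arrays. Bars span the differences from each of the 2 arrays. OAS1, OASL, MX1, RSAD2 and the IFIT genes lie at the upper right, and IFITM2 and IFITM3 lie apart on the left.

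The medians were also taken by signal level. In the dimmest of the 4 groups of genes the interferon-stimulated genes had a median difference of -0.17 between the non-target and empty-vector arrays, against -0.74 for all genes of that group. In the next group the medians were 0.61 and -0.06, then 0.36 and 0.07, and 0.14 and 0.04 in the brightest. With PARN shRNA the 4 medians were -0.80, -0.43, -0.35 and -0.06 from dimmest to brightest, and those of all genes -0.15, -0.01, -0.02 and 0.00. Against the slide-row mates, NOC shRNA gave 0.58, 0.28, 0.36 and 0.07, and all genes -0.08, 0.00, 0.01 and 0.02. The brightest group held 5 interferon-stimulated genes in each comparison, and there the medians lay nearest to those of all genes.

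**Figure D5:**
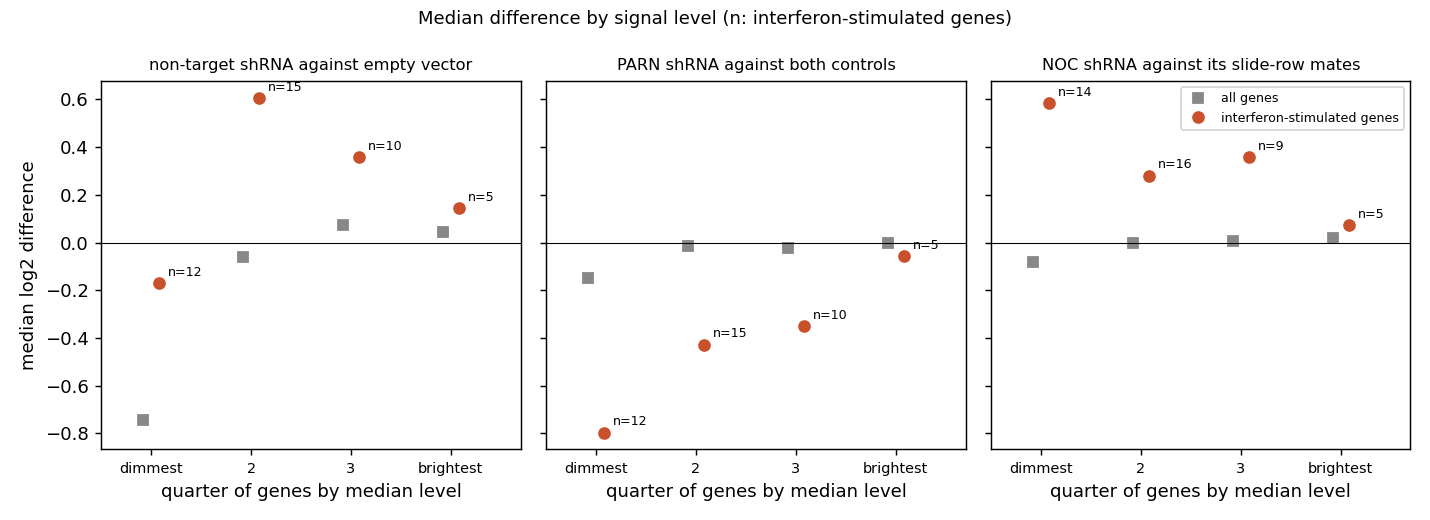
Median log2 difference of the interferon-stimulated genes (circles, with their number) and of all genes (squares) in 4 equal groups of genes by median level, for 3 comparisons. The non-target comparison shifts to -0.74 for all dim genes, and the circles lie above the squares there and in the NOC shRNA comparison, and below them in the PARN shRNA comparison.

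The genes that sense RNA or carry the signal differed in how much they varied. DDX60 ranged over 4.01-fold, from PARN shRNA to NOC shRNA. IFIH1 (MDA5), the sensor of long double-stranded RNA, ranged over 0.28 log2, EIF2AK2 (PKR), the kinase that halts translation, over 0.42, and STAT2 over 0.24. IRF7 ranged from 1.44 to 1.93. IRF9, the DNA-binding partner of STAT2, lay at -0.85, -0.31, -0.96, -1.28, -1.33, -1.11 and -0.73, highest on the non-target array and next highest with NOC shRNA, as the IFIT genes were. IRF1 was low on all 3 arrays of slide row 2 (-1.45 to -1.19) and higher in row 1 (-0.79 to -0.44). TLR3, the endosomal receptor for double-stranded RNA, showed the reverse, at -2.71 to -2.68 in row 2 and -3.49 to -3.20 in row 1. In all, 8 of 39 genes lay higher on every row 2 array than on every row 1 array, a share of 20.5% against 13.7% of all genes, and 1 lay lower (2.56%, against 14.9%).

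IFI16, a sensor of DNA, lay at -5.42, -5.77, -6.18, -6.10, -5.20, -4.64 and -5.63, highest with CNOT7 shRNA and lowest with PARN shRNA. PARP9 and DTX3L, which form a complex of ADP-ribosyltransferase and ubiquitin ligase, ranged over 1.01 and 0.39 log2, and PARP12, another member of the PARP family, over 0.38. HERC5 ranged over 0.84 log2, CMPK2, a mitochondrial nucleotide kinase, over 0.87, and IFI35, an interferon-induced leucine zipper protein, over 0.74. XAF1, a proapoptotic protein, read between -8.31 with CNOT6 shRNA and -7.37 with the empty vector. IFI44L, a paralog of IFI44, read -6.34, -7.94, -7.51, -6.86, -6.92, -6.34 and -6.51, not well above background with the non-target and PARN shRNAs. It was at least 3.03-fold lower with the non-target shRNA than with the empty vector, a call that was not made with quantile normalization or normexp. TRIM22, an antiviral ubiquitin ligase, read -7.96, -8.84, -9.52, -9.35, -8.99, -9.70 and -8.01, and passed with NOC shRNA alone.

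Genes with and without a response element match in their windows were set side by side as a description. Among genes above background on all arrays, 22 had a match in at least 1 window, and 10 had windows but no match in any. With a match the median difference between the non-target and empty-vector arrays was 0.36, and without one it was 0.19. With PARN shRNA the medians were -0.52 and -0.44. In the NOC shRNA comparison within slide row 2 they were 0.47 and 0.17, and 22 of 22 genes with a match were above 0, against 7 of 10 without. Of all 44 interferon-stimulated genes 39 were above 0 in that comparison, against 49.0% of all genes tested. OAS1, with a large difference in each comparison, had no match.

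The interferon pathway around these genes was counted as well. A list of 93 further genes (ligands, receptors, kinases, sensors, inhibitors, chemokines and other effectors) had 92 with a probe. Against both controls PARN shRNA gave 0 calls of 87 tested, where 0.16% of all genes were higher and 0.348% lower. CNOT6 shRNA also gave 0 of 87 (0.26% and 0.243% of all genes). At such shares a count of 0 does not set the list apart. CNOT6L shRNA gave 1 lower of 88 (0.695% of all genes), CNOT7 shRNA 1 higher and 2 lower of 88 (0.221% and 0.794% of all genes), and NOC shRNA 1 lower of 88 (1.06% of all genes). The medians over the list ran from -0.07 with PARN shRNA to 0.13 with NOC shRNA. Between the controls, 0 of 87 were higher with the non-target shRNA (0.614% of all genes). Lower were 11 (12.6%), near the 11.6% of all genes.

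Among the ligands IFNB1 mRNA lay between -4.62 on the non-target array and -3.80 with CNOT6 shRNA. IFNL1, IFNL2 and IFNL3, type III interferons whose sequences are alike, were lowest on the non-target array, at -5.46, -3.33 and -6.94, and at -4.03, -2.30 and -5.51 on the empty-vector array. IFNK and IFNG were above background on no array. All 6 receptor subunits were above background on all arrays, with IFNAR1 at -0.80 with PARN shRNA to -0.20 with NOC shRNA and IFNAR2 at -1.95 with the empty vector to -1.27 with NOC shRNA. RIGI, the sensor of short double-stranded RNA with 5′ triphosphate, lay between -2.31 and -1.95. Neither JAK1 (-3.15 to -2.54) nor TYK2 (-0.40 to 0.21), the kinases of the receptor, was called in any comparison with both controls.

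The pathway genes called against both controls were CXCL11, CXCL10, SOCS3 and GBP3. CXCL11, an attractant of activated T cells, lay at -4.59, -5.67, -4.42, -4.83, -6.71, -6.53 and -6.71 from the empty-vector to the NOC shRNA array, and was called lower with CNOT6L shRNA and with NOC shRNA. All 3 arrays of slide row 2 were below all 4 of row 1. CXCL10, of the same family, was lower with CNOT7 shRNA (-8.88, against -6.67 and -7.09 on the controls). The CXCL10 probe used had 1 spot and was not well above background with CNOT6L or CNOT7 shRNA. Values of the dimmer second probe of this gene are not given here. SOCS3, an inhibitor of cytokine signalling, was also lower with CNOT7 shRNA (-4.01, against -2.98 and -2.78). GBP3, a guanylate-binding protein, was higher with CNOT7 shRNA (-7.32, above background on 3 arrays). With NOC shRNA 2 of 86 list genes tested were called higher within slide row 2 (0.196% of all genes). These were CXCL10 (-6.47) and CCL5 (-4.83), each higher than on both other arrays of the row. On those arrays CXCL10 was dim, as said above, and CCL5 lay at -6.07 and -6.52.

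The 5 shRNA arrays were also fitted together against the 2 control arrays with limma, where the spread is that between different hairpins. None of 38084 probes passed an adjusted p of 0.05 (0% called), with 1432 at an unadjusted p under 0.05 and a smallest adjusted p of 0.478. Of 42 interferon-stimulated genes tested, 0 passed and 1, IRF9, had an unadjusted p under 0.05 (limma difference -0.50, SE 0.21, adjusted p 0.99999). Its level was below the mean of the controls on 5 of 5 shRNA arrays. The controls themselves differed by 0.54 for IRF9. Leaving out the empty-vector array leaves the non-target array as the only control and assumes that it varies like the others, so only effect sizes are given. The median limma difference was then -0.12 over these genes and 0.09 over all probes tested.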

How the data were processed

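Per the labels, RNA from 7 NCI-H520 cultures was hybridised to 1-colour Agilent arrays. The deposited scanner files hold the signal intensity of each spot as processed by Agilent Feature Extraction 10.7.3.1, with background subtracted by that program. Apart from a constant shift per array, a deposited series table of log2 values differed between arrays as the scanner values did. The match was then within 0.02 log2 for 100% of 33742 probes. With the shift left in, OAS1 differed between the CNOT7 shRNA and empty-vector arrays by 0.43 in the series table and by 0.38 here. Its medians lay between -0.02 and 0.09 and its centring is not given in the sources used here. The study's methods used a 2-fold threshold without a test.

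Here, log2 signals were centred on each array's 75th percentile over gene spots, spots of a probe were averaged, and a probe counted as above background when at least 50% of its spots did. Accessions were named through RefSeq (GRCh38.p14), for 24824 of 42405 probes. The 75th percentile ran from 1360 to 3939. With 1 array a group, the number of arrays limits precision. The genes and lists were chosen with earlier results of these data known. Values on every array were given for genes called in any comparison, against either control included, for the 12 with the widest range and for families whose members differed. The remaining genes were given by range. The pooled comparison used limma 3.58.1 in R 4.3.3 with a trend, on probes above background on at least 2 arrays, with Benjamini-Hochberg adjustment, tested first on simulated data. Alternatives were quantile normalization, normexp (offset 50), a 1.5-fold threshold, all probes of a gene, no filter, the series table and single controls. Normexp was run on median in place of mean spot signals.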

Additional observations from a re-analysis of the deposited data

How the results depend on the processing

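No paired analysis was possible because each group held 1 array, so the groups shared fewer than 2 replicate numbers. With quantile normalization the interferon-stimulated genes called fell to 0 lower with PARN shRNA, 0 higher with CNOT6 shRNA, 0 lower with CNOT7 shRNA and 1 higher with NOC shRNA, and between the controls 10 were higher and 0 lower on the non-target array. It moved the median of all genes between the controls by 0.12. The difference between the control arrays rose from 1.33 to 2.07 for OAS1, a dim gene, and from 1.07 to 1.08 for MX1. The share of all genes called with quantile normalization is not given, so the count of 10 does not set these genes apart from the rest. With normexp the corresponding counts were 0, 0, 0 and 1, with 0 lower on the non-target array and 1 higher with NOC shRNA within slide row 2, and the median of all genes with CNOT6 shRNA moved by 0.12. The cause was not tested. The median of the interferon-stimulated genes stayed on the same side of the median of all genes under both. The median of these genes minus that of all genes was -0.41 and -0.22 for PARN shRNA and 0.23 and 0.15 for NOC shRNA. For the non-target against the empty-vector array it was 0.43 and 0.23.

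At 1.5-fold the counts rose by construction. Beside the share of all genes so called, there were 6 lower with PARN shRNA (1.5%), 1 lower with CNOT6 shRNA (1.41%), 3 lower with CNOT6L shRNA (2.93%), 1 higher and 2 lower with CNOT7 shRNA (1.26% and 3.28%), 4 higher with NOC shRNA (1.65%), and 14 higher and 3 lower on the non-target array (3.56% and 20.4%). Within slide row 2 there was 1 lower with CNOT6L shRNA (0.655%) and 10 higher with NOC shRNA (0.616%).

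The settings that follow kept the 2-fold threshold. Shares of all genes are in brackets. Against the empty-vector array alone there were 5 lower with PARN shRNA (5.18%) and 2 higher with CNOT6 shRNA (0.543%). There were 2 lower with CNOT6L shRNA (6.44%), 1 lower with CNOT7 shRNA (7.44%) and 8 higher with NOC shRNA (0.723%). Against the non-target array alone 12 were lower with PARN shRNA (1.5%), and CNOT6 shRNA gave 2 higher and 3 lower (8.57% and 1.2%). CNOT6L shRNA gave 1 higher and 7 lower (5.37% and 1.58%). CNOT7 shRNA gave 2 higher and 4 lower (4.37% and 1.8%), and NOC shRNA 3 higher and 2 lower (4.25% and 2.05%). The mean over all probes gave 1 higher with NOC shRNA, and no filter on dim probes gave 1 lower with CNOT7 shRNA within slide row 2. The series table gave a 7th gene, RSAD2, higher on the non-target array. In the pooled limma comparison, leaving out each array in turn gave 0 to 63 probes called, 63 when the empty vector and 1 when the non-target shRNA was left out, and 0 interferon-stimulated genes each time. Dim genes limit these counts, since 5 of the 44 genes were not above background on every array.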
